A study of Mus musculus with 4 samples.

Results

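The 2 arrays described here are those, of 4 in the series, on which endothelial genes were high and pigment genes low. They are the array of the most frequent clone (clonal expansion) of tumor B, called expansion B, and the array of the least frequent clone (clonal extinction) of tumor A, called extinction A. The other 2 arrays are expansion A and extinction B. Because measured values chose the pair, the endothelial and pigment levels below describe it and support nothing. Each side has 1 array, and the tumor changes together with the clone class, so the effects of tumor and clone cannot be told apart and no test was run. No error can be attached to a difference, and the values describe these 2 RNA samples.

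B16 melanoma, a pigmented tumor line of C57BL/6 origin, had been injected into C57BL/6 mice with a multi-color Cre reporter, and tamoxifen had marked the cells. Tumors were dissociated 2 weeks later, and cells that were CD45-CD31+CD144+ were sorted for each color class. This gate keeps endothelial cells, which line blood vessels, and leaves out blood cells. All 4 groups shared strain, tumor line, reporter, tamoxifen and gate, and differed by their labels in the tumor (A or B) and in the clone frequency (expansion or extinction). The sources used here do not give the Cre driver, the age of the mice or the number of cells per sample. Cells of a color need not descend from a single cell.

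Vessels that sprout are led by tip cells, which invade matrix under the control of VEGF and Notch signaling, while resting capillaries take up fatty acids and keep tight junctions. Veins recruit leukocytes through selectins and chemokine-binding receptors. Around the endothelium lie a basement membrane, pericytes and fibroblasts, and a sort of vessels can carry RNA from all of these and from the tumor cells.

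The defining endothelial genes were bright on both arrays. Values are log2 RMA values, on which a difference of 1 is 2-fold, and are given throughout in the order expansion B, extinction A, expansion A, extinction B. Cdh5, which encodes the sorted junction protein CD144, was at 11.51, 11.46, 8.69 and 9.80. The VEGF receptor Kdr was at 12.06, 11.62, 8.82 and 9.75. Both genes were thus higher on the chosen arrays than on the other 2, and the chosen arrays lay within 0.44 of each other. The angiopoietin receptor Tek was at 10.84, 9.53, 5.78 and 7.92, and the tight junction claudin Cldn5 at 12.34, 9.71, 7.43 and 8.85. For these 2 genes expansion B stood above extinction A. The sort marker Pecam1 (CD31) was at 8.61, 8.82, 6.16 and 6.90. Ptprc (CD45), the marker sorted against, was at 4.27, 3.93, 3.85 and 3.63, below the lower quartile of all probe sets on each array, which lay between 4.45 and 4.48.

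RNA of other cells was present too, so that the 2 arrays were rich in endothelial RNA only by comparison. The pigment enzyme Dct was at 7.62, 9.79, 14.36 and 13.84 and the melanosome protein Pmel at 7.80, 9.90, 14.40 and 13.82. Both were far below their levels on the other 2 arrays but above the array medians of 5.77 and 5.73, and about 2 log2 units higher on extinction A than on expansion B. Of the 13 measured melanoma genes 11 were lower on expansion B, with a median difference of -0.69 (4 lower at least 2-fold). Dct and Pmel were among those 4, so their difference exceeds that of most of the list. The lineage factors Mitf (-0.07) and Sox10 (-0.04) were nearly level, and Rab38 (0.10) and Gpnmb (0.33) were higher on expansion B. By the median ratio of these genes, the melanoma signal of extinction A was 4.11% of that on expansion A, and that of expansion B was 2.47% of that on extinction B, on the linear scale. Fibroblast collagens were at the top of the scale, as described below. Fewer cells of a type and less RNA per cell cannot be told apart in such bulk samples.

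Across 18193 genes, each read from 1 probe set, the 2 arrays correlated at r = 0.98, a description across genes that share the same 2 libraries. The median difference, expansion B minus extinction A, was -0.01, with an SD over genes of 0.50. In all, 938 genes (5.16%) were at least 2-fold apart, 554 higher on expansion B (3.05%) and 384 lower (2.11%). Of the 11878 genes whose higher array was no lower than the median of all probe sets, 7.44% were 2-fold apart. Most list members were at that level, so the list counts below are to be read beside these shares. Set against the median difference of the endothelial genes (0.32) in place of the deposited scale, the same threshold gave 309 higher and 1022 lower. The other 2 arrays differed 2-fold at 726 genes (3.99%). The 4 pairs that joined a chosen array with an array outside the pair differed at between 2229 and 3310 genes. Just inside the threshold lay Gfpt2 at 1.00 and Ablim1 at 1.00, and just outside Apold1 at 0.998 and Ephx2 at 0.997. On the lower side Tmem164 (8.76 and 9.76 on expansion B and extinction A) and Col15a1 (9.91 and 10.91) were just inside and Cenps, at -0.998, was just outside. RNA quality probes differed as well: the 3 prime minus 5 prime difference was 2.72 and 2.18 for Actb and 3.21 and 2.49 for Gapdh on expansion B and extinction A, a steeper fall towards the 5 prime end on expansion B. Its part in the differences below was not tested.

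**Figure D1:**
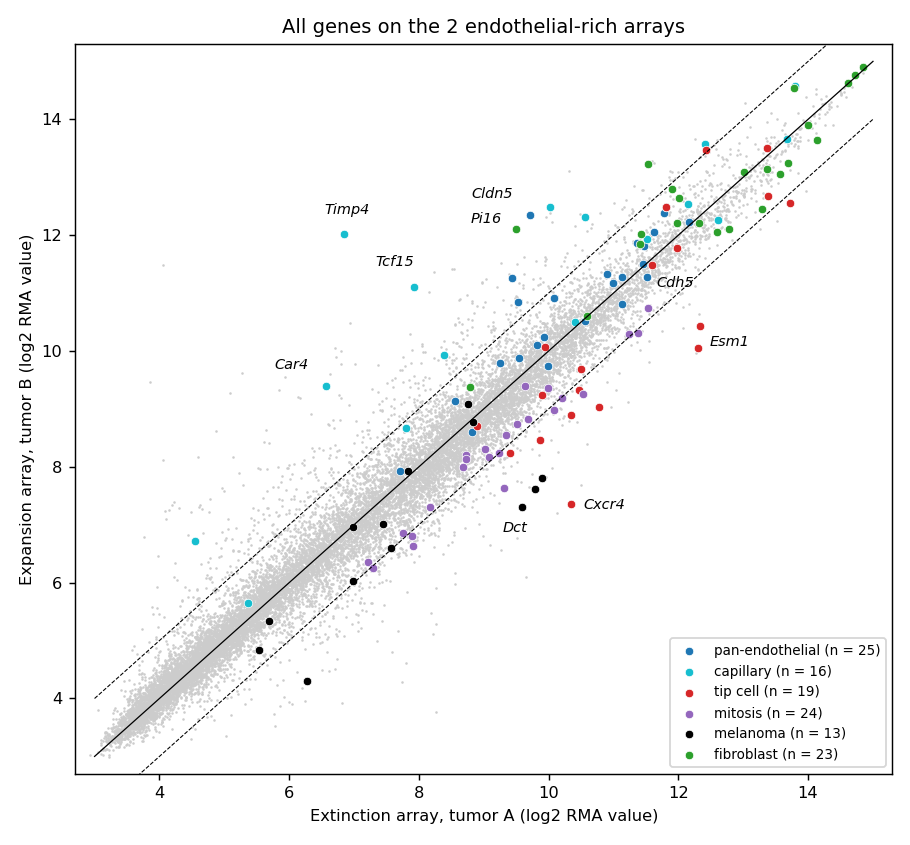
Log2 RMA value of each of 18193 genes on extinction A (x axis) and expansion B (y axis), with members of 6 gene lists in color. The solid line marks equal values and the dashed lines 2-fold differences: Timp4 and Tcf15 lie far above the upper dashed line and Cxcr4 below the lower, while Cdh5 lies on the line of equal values.

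General endothelial identity differed little between the arrays. Of 25 pan-endothelial genes 22 were within 2-fold, 3 were higher on expansion B and none was lower, with a median difference of 0.32. Within this list the highest values were those of the adhesion molecule Esam (12.22 and 12.16 on expansion B and extinction A), the sialomucin Cd34 (12.48 and 11.80), Mmrn2 (12.38 and 11.78), Kdr, the TGF-beta co-receptor Eng (11.82 and 11.46) and the phosphatase Ptprb (11.86 and 11.36). Below these came Cdh5, Ecscr (11.28 and 11.51), Egfl7 (11.27 and 11.13) and the VEGF receptor Flt1 (11.32 and 10.90). Probe sets respond differently to equal RNA, so this is no ranking of transcript amounts. Ptprb was the exception to the contrast with the other arrays, where it was at 12.36 and 12.26. A second probe set, with 11.87 and 11.08 on the chosen arrays and 9.75 and 10.03 on the others, followed the other endothelial genes, and another was lower on expansion B (4.47 and 5.96).

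The 3 endothelial genes more than 2-fold higher on expansion B were Cldn5, by 2.63, the transcription factor Sox17, by 1.83, and Tek, by 1.31. Among 17 junction and caveola genes 3 were 2-fold higher and none lower, with a median of 0.09: Cldn5, the junctional adhesion molecule Jam2 (1.90) and the caveola protein Cavin2 (1.25). The rest of that list was nearly level, with the caveolin Cav1 at 13.60 and 13.51 and Esam 0.06 apart. Plvap, the diaphragm protein of fenestrated vessels, was 0.35 lower on expansion B.

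Capillary genes were the endothelial group that stood highest on expansion B. Of 16 members 8 were at least 2-fold higher and none lower, with a median of 1.02 where the median over all genes was -0.01. Timp4, a metalloprotease inhibitor, was at 12.02 on expansion B and at 6.84, 4.38 and 5.06 on the other 3 arrays, so that no other array came near. Tcf15, a transcription factor that controls fatty acid uptake in capillaries, was at 11.11, 7.93, 6.75 and 7.79, and the membrane carbonic anhydrase Car4 at 9.39, 6.57, 5.45 and 5.64. The fatty acid translocase Cd36 was at 12.48, 10.03, 7.46 and 9.10, and the water channel Aqp1 at 12.32, 10.56, 8.38 and 9.29. In each of these 5 genes extinction A came second and expansion A was lowest. Pparg (1.55), Aqp7 (2.17) and lipoprotein lipase, Lpl (1.17), completed the 8. The partner of Tcf15, Meox2, was nearly level at 10.50 and 10.40, as were the lipoprotein lipase anchor Gpihbp1 (0.37) and Fabp5 (-0.01). Fat genes were higher on expansion B too, 17 of 18 on the adipocyte list (median 0.44), with Adipoq at 6.78 and 3.76. Fat cells also express Cd36, Lpl, Aqp7 and Pparg, and the part of fat RNA in the capillary differences was not tested.

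Venous and leukocyte-adhesion genes were also higher on expansion B in part. Ackr1, the chemokine-binding receptor of venules, was at 11.42, 8.52, 6.58 and 7.55. P-selectin, Selp, was at 11.82, 10.40, 8.31 and 9.52, and E-selectin, Sele, at 7.81, 6.68, 4.66 and 4.42. Expansion B was the highest array and extinction A the second for all 3 genes. With Lrg1 (1.34), 4 of 12 venous genes were 2-fold higher and none lower (median 0.65), and of 12 adhesion genes the 4 were Ackr1, Selp, Sele and Jam2 (median 0.46). Relative to the pan-endothelial median of 0.32, the venous median was 0.32 and the adhesion median 0.13. Vcam1 (-0.18), Icam2 (0.18), the venous transcription factor Nr2f2 (-0.25) and its partner in venous identity Ephb4 (0.24) were close to level.

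Tip cell genes went the other way. Of 19 members 9 were at least 2-fold lower on expansion B and 1 higher, with a median of -0.81. Cxcr4, the CXCL12 receptor, was at 7.37, 10.34, 6.51 and 8.99. The proteoglycan Esm1 was at 10.44, 12.33, 9.99 and 11.36, and the potassium channel subunit Kcne3 at 9.02, 10.78, 8.04 and 10.21. For these 3 genes both extinction arrays lay above both expansion arrays. The netrin receptor Unc5b (-1.45), placental growth factor Pgf (-1.41), the vessel peptide Apln (-1.16), the Tie2 ligand Angpt2 (-1.14), Igfbp3 (-1.17) and the matrix glycoprotein Tnc (-2.24) were the other lower members. Adrenomedullin, Adm, was the member that was higher (1.04), and the Notch ligand Dll4 of tip cells was level at 8.71 and 8.89. Melanoma genes were also lower on expansion B, and their part was not tested. The melanoma-rich array of the same tumor, scaled to 4.11% for extinction A and 2.47% for expansion B, was also subtracted on the linear scale. The tip cell list then held 9 lower and 1 higher, with a median of -0.81. The melanoma-rich arrays carried endothelial RNA too and little of a bright gene was removed, so this does not decide the part of melanoma RNA.

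**Figure D2:**
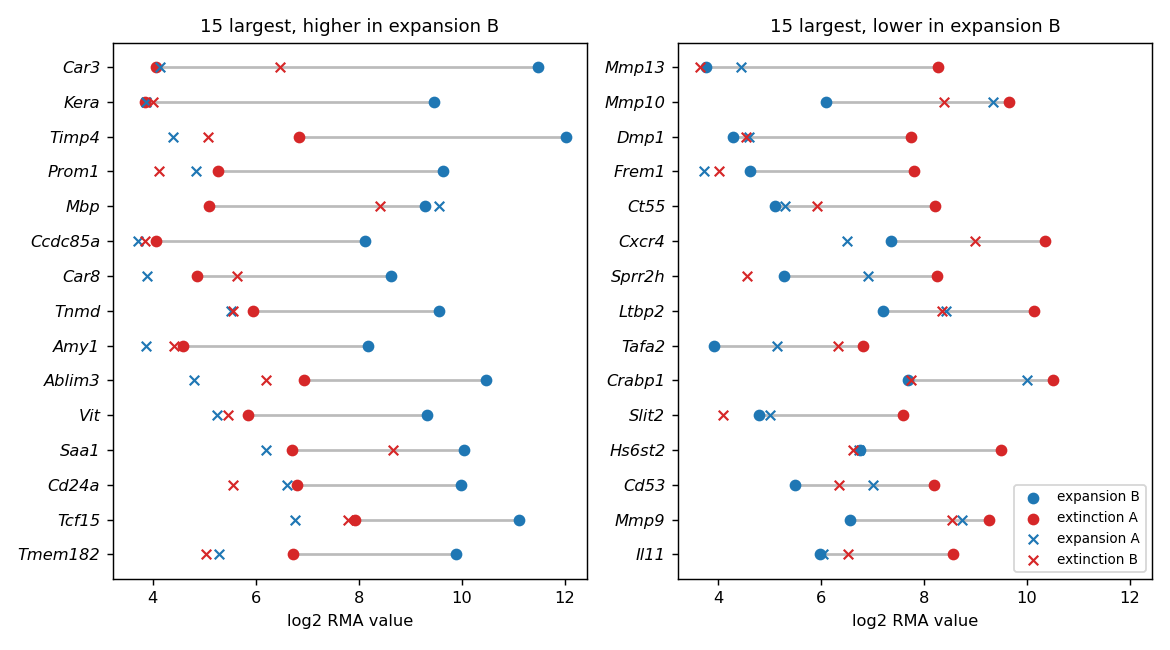
Log2 RMA values on all 4 arrays for the 15 genes with the largest difference in each direction (1 row per gene, with the gray bar joining the 2 compared arrays). Car3 and Kera are high on expansion B alone of the 2 compared arrays, and all 15 genes on the right are highest on extinction A.

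Signaling lists were mixed, with single members far apart. Of 17 Notch genes 2 were 2-fold lower on expansion B, the Notch target genes Hey2 (-1.38) and Heyl (-1.06). Hey2 was dim, at 4.33 on expansion B, below its lower quartile, and 5.71 on extinction A, below its median, so its difference is uncertain. The ligand Dll1 was the 1 higher gene, at 8.81, 6.78, 6.61 and 7.18. The receptors Notch1 (0.19), Notch2 (0.50), Notch3 (-0.64) and Notch4 (-0.47) were within 2-fold, and the list's median was -0.19. Of 15 VEGF and angiopoietin genes Pgf and Angpt2 were lower and Tek higher (median -0.08). Vegfa (-0.47), Flt1 (0.42) and Kdr (0.44) were within 2-fold.

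Arterial genes gave 2 higher and 3 lower of 16 (median -0.24). Cxcr4, Unc5b and the dim Hey2 were lower, and Sema3g (1.17) and the elastic fiber protein Fbln5 (1.13) higher. Efnb2, the arterial ephrin, was level at 10.74 and 10.93. Of 9 measured lymphatic genes Reln (1.86) and Sema3d (2.67) were higher and Foxc2 (-1.33) lower. The lymphatic master regulator Prox1, at 5.22 and 4.62, and Lyve1, at 5.04 and 5.06, were below the array medians.

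Among 22 TGF-beta and BMP genes 3 were 2-fold higher on expansion B and 3 lower, with a median of 0.36. The ligand Bmp6 was at 9.19, 6.79, 5.21 and 5.81 and Ltbp1, which anchors latent TGF-beta in matrix, at 10.12, 8.05, 5.53 and 7.89. Both were highest on expansion B, as was Bmp4 (1.29). The related microfibril protein Ltbp2 was at 7.20, 10.13, 8.43 and 8.35 and Inhba, the activin A subunit, at 9.97, 12.27, 11.003 and 11.65. For both, expansion B was the lowest array and extinction A the highest. Tgfb3 was lower by 1.13 on the log2 scale. Of 14 coagulation genes the thrombin co-receptor thrombomodulin, Thbd, was higher (1.37), and the thrombin receptor F2r lower (-1.15), and the list's median was 0.26.

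Stromal genes were bright on both arrays and their core differed little. Of the fibroblast, pericyte and basement membrane lists, the highest values were those of the collagens Col1a2 (14.91 and 14.85), Col3a1 (14.76 and 14.72), Col5a2 (13.89 and 13.99) and Col4a1 (13.91 and 14.27), the matrix proteins Sparc (14.62 and 14.62), Bgn (13.64 and 14.13), Postn (13.25 and 13.69) and Nid1 (13.51 and 13.37), the proteoglycan Dcn (14.55 and 13.78) and smooth muscle actin, Acta2 (13.07 and 13.84). Col1a2 lay at or close to the highest value of any probe set, which was 14.91 on expansion B and 14.89 on extinction A, although the gate had asked for CD31 and CD144. On the other 2 arrays these 10 genes were also high, from 12.37 for Nid1 on expansion A to 14.60 for Col1a2 on extinction B.

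Of 23 fibroblast genes 2 were 2-fold higher on expansion B and none lower, with a median of 0.04. Both belong to fibroblasts of skin and loose connective tissue: Pi16 was at 12.11, 9.49, 7.78 and 9.91, and dermatopontin, Dpt, at 13.22, 11.53, 10.21 and 12.08. In both genes the array of tumor B exceeded that of tumor A in the other pair too. Further matrix genes of tendon and dermis were among the largest differences: keratocan, Kera, a leucine-rich proteoglycan, was at 9.47, 3.85, 3.87 and 3.996, the tendon membrane protein Tnmd at 9.56, 5.94, 5.52 and 5.55, and vitrin, Vit, at 9.33, 5.84, 5.25 and 5.47. These 3 were high on expansion B and no higher than 5.94 on any other array.

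Pericyte and smooth muscle genes were lower on expansion B throughout. All 16 measured members had a negative difference, from -1.40 to -0.32, and 4 were at least 2-fold lower, with a median of -0.73. They were the proteoglycan Cspg4, at 7.90, 9.29, 7.92 and 7.998, Ndufa4l2 (-1.19), the contractile protein Cnn1 (-1.17) and the adhesion molecule Mcam (-1.01). Pdgfrb, the receptor that recruits pericytes, was at 13.12 and 13.71, and Rgs5 at 12.90 and 13.38. Of 18 basement membrane genes 3 collagens were lower and none was higher (median -0.21): Col8a1 (-1.68), Col18a1 (-1.04) and Col15a1. The main basement membrane collagens Col4a1 (-0.36) and Col4a2 (-0.49) and the laminin Lama4 (-0.10) were within 2-fold. Subtraction of the melanoma signal left 4 lower pericyte genes and 2 lower basement membrane genes, which does not decide the part of melanoma RNA.

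Adipocyte genes included the gene measured furthest apart. Car3, a carbonic anhydrase abundant in fat and muscle, was at 11.49 on expansion B and 4.06 on extinction A, with 4.14 on expansion A and 6.46 on extinction B. The difference of 7.44 came from the brightest of 4 probe sets, and its size is uncertain because extinction A lay below its lower quartile of all probe sets (4.45), as it did for Adipoq, Kera and Ccdc85a. The other 3 lay between 3.13 and 5.71 on the chosen arrays, and 1 of them was also 2-fold higher on expansion B (1.10). The fat hormone adiponectin, Adipoq, was at 6.78, 3.76, 3.78 and 3.75, and Thrsp, a lipogenic gene, at 9.19, 6.17, 5.96 and 6.00. For both, expansion B was the highest array by about 3 log2 units. The other probe sets of Thrsp were -0.10 and 0.40 apart. Of 18 measured adipocyte genes 4 were 2-fold higher and none lower (median 0.44), the last being Pparg, which is also on the capillary list. The other defining fat genes did not differ 2-fold: Plin4 (5.17 and 4.72), Cidec (4.95 and 4.70) and the hormone Lep (4.90 and 4.53) were below the array medians on both arrays. No gene of the skeletal muscle list was 2-fold apart (12 measured, median 0.10), although Car3 is also expressed in muscle.

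Matrix proteases were among the largest differences in the other direction. Mmp13, the collagenase of remodeling bone and wounds, was at 3.76, 8.26, 4.44 and 3.64, so that extinction A stood alone. The stromelysin Mmp10 was at 6.10, 9.65, 9.35 and 8.38 and the gelatinase Mmp9 at 6.57, 9.27, 8.73 and 8.55, where expansion B was the array that stood apart. The inhibitor Timp1 was lower by 1.21 on the log2 scale. In the same list Adamts5 (1.46) and Adamts1 (1.10) were higher on expansion B, making 2 higher and 4 lower of 18, and the stromal gelatinase Mmp2 was at 13.22 and 12.55.

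Other genes far lower on expansion B were the bone matrix gene Dmp1 (4.28, 7.74, 4.60 and 4.55), Frem1 of epithelial basement membranes (4.61, 7.80, 3.72 and 4.01), the guidance ligand Slit2 (4.80, 7.58, 5.01 and 4.10) and the heparan sulfate sulfotransferase Hs6st2 (6.76, 9.51, 6.74 and 6.62). In these 4 genes extinction A alone was high. The cytokine Il11 (5.98, 8.56, 6.03 and 6.52) had the same shape. Ct55 (-3.12) and Tafa2 (-2.89) were also among the 15 largest. For Mmp13, Dmp1 and Tafa2 expansion B lay below its lower quartile of 4.47, so the sizes of these differences are uncertain too. On the higher side the stem cell marker Prom1 (9.63, 5.27, 4.83 and 4.12), Ccdc85a (4.07), Car8 (3.76), Amy1 (3.59), Ablim3 (3.54), Cd24a (3.19) and Tmem182 (3.17) made up the 15. Of these 15 genes 14 were highest of the 4 arrays on expansion B. The exception was myelin basic protein, Mbp, at 9.28, 5.09, 9.57 and 8.42, for which extinction A stood apart. Of the other probe sets of Mbp 4 were 2-fold higher on expansion B and 1 was 0.16 lower.

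Cell cycle genes were lower on expansion B as a group. All 24 measured mitosis genes had a negative difference, with a median of -0.88. Of these 8 were at least 2-fold lower and none higher, where 2.11% of all genes were lower. The checkpoint kinase Bub1 was at 7.64, 9.32, 8.99 and 8.34, the cyclin Ccnb2 at 9.26, 10.53, 9.51 and 9.23, the ubiquitin-conjugating enzyme Ube2c at 8.97, 10.08, 9.13 and 8.79, and Mki67 at 10.31, 11.38, 11.28 and 11.25. Extinction A was the highest array for all 4 genes. Of 23 DNA replication genes 22 had a negative difference, with a median of -0.87, and 9 were 2-fold lower. The helicase subunit Mcm6 was at 9.46, 10.89, 10.81 and 10.91, so that expansion B stood below the other 3. Cdc45 (-1.22), the clamp loader Rfc3 (-1.22), Gins1 (-1.20) and the nucleotide reductase Rrm2 (-1.10) were also lower, and Pcna was level at 12.59 and 12.54. A second probe set of Cdc45 was level at 6.53 and 6.49. Melanoma genes were lower on expansion B too, and their part was not tested. With the melanoma signal subtracted the medians were -0.88 and -0.87, with 9 lower in each list. Only 4.11% (extinction A) and 2.47% (expansion B) of a melanoma-rich array was taken away. These medians could therefore hardly move, and they do not decide the part of melanoma RNA.

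Promoters of both groups are printed because their members stood lower together on expansion B. The sequences are RefSeq promoters on GRCm38.p6, the 130 bases before the annotated start, 5′ to 3′. For Mcm6 the capitals mark E2F-type motifs (TTTCGCGC, TTTGGCGC, TTTCCCGC or TTTGCCGC on either strand, 2 of them overlapping). For Ube2c and Cdk1 they mark the cell cycle homology region (TTTGAA) and the CCAAT box, each on either strand.
Mcm6, chr1:128359706-128359835, minus strand: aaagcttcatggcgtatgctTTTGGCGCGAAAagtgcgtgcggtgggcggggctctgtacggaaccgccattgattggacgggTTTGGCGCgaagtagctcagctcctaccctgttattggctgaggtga
Ube2c, chr2:164769799-164769928, plus strand: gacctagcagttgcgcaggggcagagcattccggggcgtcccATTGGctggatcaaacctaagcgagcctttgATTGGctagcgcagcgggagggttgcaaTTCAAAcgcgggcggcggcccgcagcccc
Cdk1, chr10:69352913-69353042, minus strand: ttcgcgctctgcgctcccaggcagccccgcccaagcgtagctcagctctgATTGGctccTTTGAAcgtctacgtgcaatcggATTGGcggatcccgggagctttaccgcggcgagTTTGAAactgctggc

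Counted over windows of 250 bases before to 50 after the start, an E2F-type motif was found for 10 of the 20 replication genes with a promoter in the table, for 1 of 20 mitosis genes and for 3.81% of all 14452 measured genes with one. TTTGAA was found for 15 of 20 mitosis genes, 3 of 20 replication genes and 15.7% of all. A CCAAT box was found for 16 of 20 mitosis genes, 13 of 20 replication genes and 42.0% of all. Replication genes at least 2-fold lower on expansion B held the E2F-type letters in 3 of 8 cases, and such mitosis genes held TTTGAA in 5 of 7. These are matches of letters, and the arrays did not measure binding.

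Hypoxia and sugar metabolism genes were lower on expansion B as well. Of 22 hypoxia genes 6 were 2-fold lower and 2 higher, with a median of -0.57. The HIF hydroxylase Egln3 was at 6.49, 8.37, 7.59 and 8.38, the disulfide oxidase Ero1a at 10.40, 12.07, 12.67 and 12.66, and the glucose transporter Slc2a1 at 10.76, 12.07, 11.90 and 12.05. Expansion B was the lowest array for these 3 genes, while extinction A was the highest for Slc2a1, was close to extinction B and above expansion A for Egln3, and lay under both melanoma-rich arrays for Ero1a. Car9 (-1.66), Ankrd37 (-1.26) and Ak4 (-1.12) were the other lower members, and Adm (1.04) and Pfkfb3 (1.12) the higher.

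In the glycolysis list 4 of 12 genes were lower and none higher (median -0.77): pyruvate kinase, Pkm, was at 9.81, 11.55, 12.36 and 11.68, and Pfkl (-1.36), Aldoc (-1.17) and Tpi1 (-1.12) followed. Cholesterol synthesis genes gave 3 lower of 12 (median -0.67), the largest being Fdps (-1.22). The ATF4 amino acid list gave 2 lower of 16 (median -0.45), Shmt2 (-1.18) and Vldlr (-1.15). Other probe sets of Vldlr differed in both directions, from -2.64 to 0.46. These metabolic genes were mostly higher on the melanoma-rich arrays: the glycolysis list had median levels of 10.66, 11.10, 12.09 and 11.47 in the usual array order. With the melanoma signal subtracted the glycolysis list held 3 lower genes with a median of -0.67 and cholesterol synthesis 2 with a median of -0.58. The hypoxia list held 6 lower with a median of -0.57. The subtraction does not decide the part of melanoma RNA in these lists.

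The promoter of Slc2a1 is shown as an example of the hypoxia list, with the core of the hypoxia response element (ACGTG, either strand) in capitals, in the same 130-base window and build.
Slc2a1, chr4:119108615-119108744, plus strand: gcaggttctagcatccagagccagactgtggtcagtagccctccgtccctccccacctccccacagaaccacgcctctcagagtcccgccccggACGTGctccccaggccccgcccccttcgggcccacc
From 250 bases before to 50 after the start the core was found for 17 of 21 hypoxia genes, for all 6 that were 2-fold lower, and for 26.1% of all measured genes with a promoter. Hypoxia-inducible factors bind this core, and their known targets make up such lists whatever the arrays show.

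**Figure D3:**
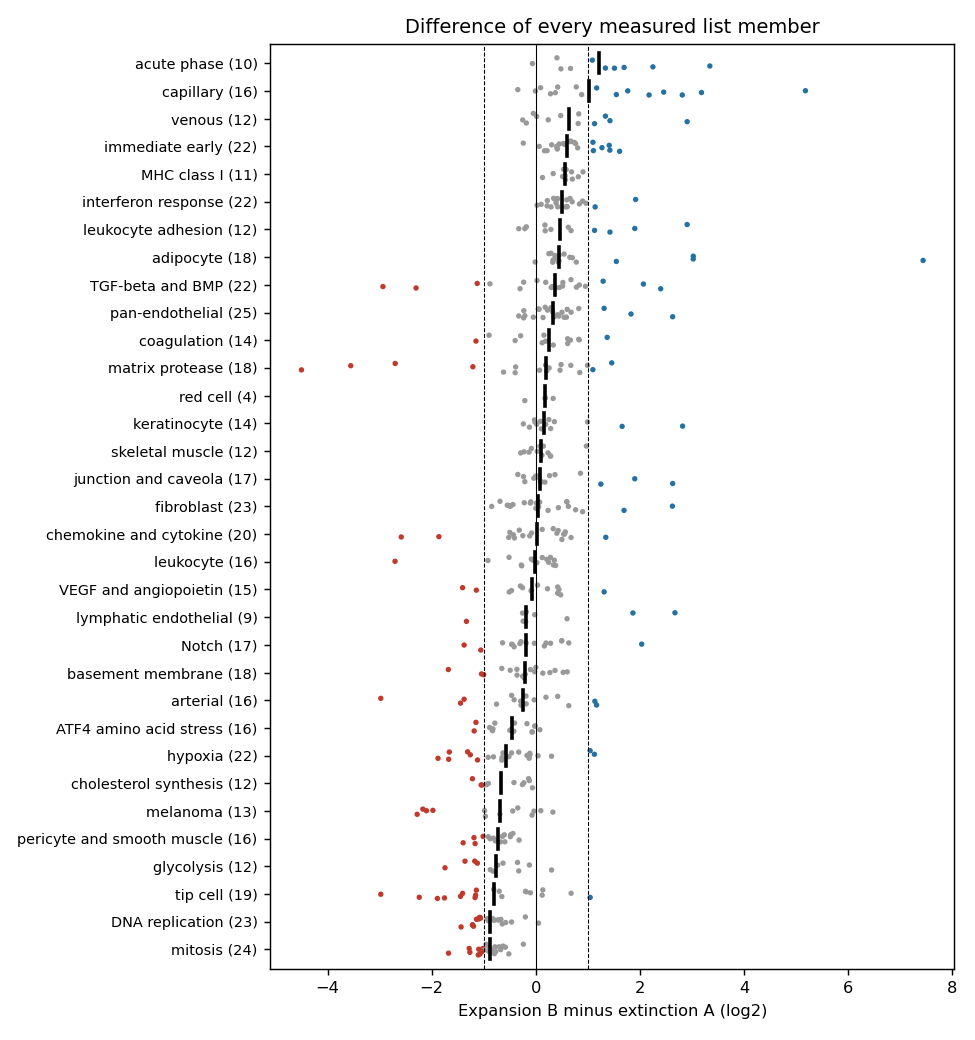
Difference between expansion B and extinction A (log2, x axis) of every measured member of 33 gene lists, ordered by the median (black bar, number of measured members in parentheses). Blue and red points are at least 2-fold higher or lower on expansion B: all mitosis points lie below 0, and the acute phase and capillary lists have the highest medians, 1.21 and 1.02.

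Acute phase genes stood higher on expansion B. Of 10 members 6 were 2-fold higher and none lower, with a median of 1.21, the highest of the 33 lists. Serum amyloid Saa1 was at 10.05, 6.71, 6.20 and 8.66, the siderophore-binding lipocalin Lcn2 at 10.89, 8.64, 6.71 and 9.36, and haptoglobin, Hp, at 12.26, 10.56, 9.27 and 11.53. For these 3 genes both arrays of tumor B lay above both arrays of tumor A. Saa2 (1.51), Lrg1 (1.34) and Serpina3n (1.08) were the other 3, and Saa3 was at 14.53 and 14.12.

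All 22 measured interferon response genes were higher on expansion B, but by a median of only 0.50, and 2 passed 2-fold: the chemokine Cxcl9, at 10.47, 8.55, 6.38 and 8.24, and Iigp1 (1.14). The 11 MHC class I genes were likewise all higher, from 0.13 for B2m to 0.91 for the transactivator Nlrc5, with none 2-fold apart and a median of 0.57. The 22 immediate early genes had a median of 0.61, with 21 higher and 6 by at least 2-fold. These were the flow-responsive factor Klf2, at 11.55, 9.94, 8.71 and 9.35, Atf3 (1.42), Klf4 (1.41), Btg2 (1.27), Fosb (1.11) and Jun (1.10). Fos, at 14.43 and 14.13, and Egr1, at 14.38 and 13.97, were bright on both arrays. The pan-endothelial median of 0.32 lay in the same direction as these 3 lists. Relative to it their medians were 0.17 for interferon response, 0.24 for MHC class I and 0.28 for immediate early genes, and members such as Oasl2 (0.02), Rtp4 (0.10) and B2m lay below it.

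Chemokines and cytokines had no common direction. Of 20 genes Csf3 (1.34) was higher and Il11 (-2.58) and Lif (-1.86) were lower, with a median of 0.02. Cxcl1, at 14.56 and 14.68, Il6, at 13.69 and 13.35, and Cxcl12, at 13.11 and 12.43, were bright on both arrays. Of 16 leukocyte genes 1 was 2-fold apart, the tetraspanin Cd53, at 5.48, 8.19, 7.01 and 6.36, while the list's medians of 5.22 and 5.38 were below the array medians and Ptprc, Cd52 and Adgre1 were at or under 4.36 on both arrays. The receptor Csf1r was the brightest member, at 9.91 and 9.70. Of 14 keratinocyte genes the secreted proteins Dmkn (2.82) and Sbsn (1.66) were higher and the basal keratins Krt5 (6.02 and 5.92) and Krt14 (4.18 and 4.42) within 2-fold (median 0.15). None of the 4 measured red cell genes was 2-fold apart (median 0.18).

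The other 2 arrays, which the 2-fold rule did not use, carry the same tumors and clone classes in the other combination. A gene that is higher on expansion B may follow the tumor, and be higher on extinction B than on expansion A, or follow the clone class, and be lower there. Of the 554 genes higher on expansion B, 131 (23.6%) were at least 2-fold higher on extinction B too, in the direction of the tumor, where 2.37% of all genes were. In the direction of the clone class it was 13 (2.35%), against 1.62% of all genes. Of the 384 lower genes 14 (3.65%) were 2-fold apart by tumor, against 1.62% of all genes, and 24 (6.25%) by clone class, against 2.37%. The remaining 756 of the 938 genes were not 2-fold apart on the other arrays. The shares of all genes include genes below the median level, which seldom pass 2-fold (0.855% on the chosen pair). Shares matched for level are not given, so these comparisons are not matched for brightness. The 2 pairs share no array but were normalized together, and pan-endothelial genes were higher on extinction B than on expansion A by a median of 1.04, with 13 of 25 at least 2-fold higher. With each pair set relative to its own endothelial median, 27 of 309 higher genes (8.74%) were 2-fold higher on extinction B too, where 0.258% of all genes were. By tumor 631 of 1022 lower genes (61.7%) were then lower on extinction B, against 61.0% of all genes. By clone class it was 96 of 309 higher genes (31.1%), against 61.0% of all genes, and 4 of 1022 lower genes (0.391%), against 0.258%. All these counts take the labels as given, and whether a pair of labels was exchanged could not be settled from the values.

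**Figure D4:**
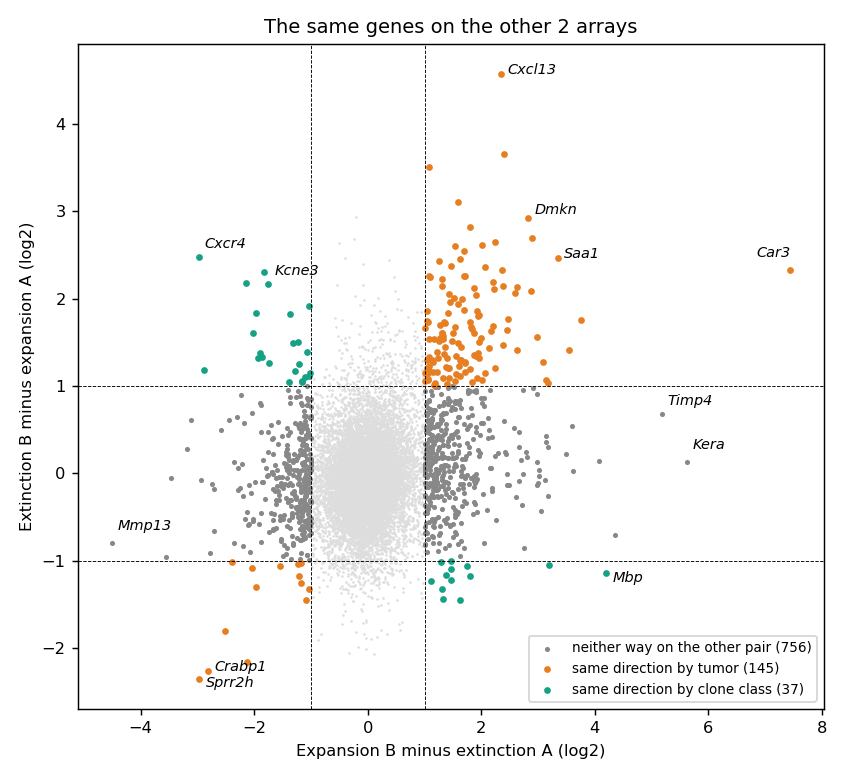
Difference of each gene on the chosen pair (expansion B minus extinction A, x axis) and on the other pair (extinction B minus expansion A, y axis), log2, with dashed lines at 2-fold. Orange points (145) go the same way by tumor, green points (37) by clone class, and 756 gray points pass 2-fold on the chosen pair without passing it on the other.

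Genes that were higher in tumor B in both pairs were led by dermokine, Dmkn, at 8.42, 5.61, 5.17 and 8.09, and the ferritin receptor Scara5, at 11.42, 8.53, 6.10 and 8.80. The B cell chemokine Cxcl13 was at 12.31, 9.96, 5.89 and 10.46. In Dmkn the 2 arrays of each tumor were close, while in Scara5 and Cxcl13 expansion A lay far below extinction A. Saa1, Car3, Lcn2, Pi16, the matrix protein Ogn (2.37 and 2.33 in the 2 pairs), the decoy receptor Il1r2 (2.21 and 2.19) and Chil1 (2.37 and 2.14) completed the 10 with the largest smaller difference. By list, the 131 of 18193 genes included 4 of 10 acute phase genes, 3 of 16 capillary genes, 3 of 25 pan-endothelial genes and at most 2 of any other list.

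Among the 14 genes lower in tumor B in both pairs were the epidermal Sprr2h, at 5.29, 8.26, 6.92 and 4.57, the retinoic acid binding protein Crabp1, at 7.69, 10.50, 10.01 and 7.75, the granzyme Gzme, at 3.91, 6.04, 6.59 and 4.42, and Stbd1 (-2.51 and -1.81). Both arrays of tumor A lay above both of tumor B for these 4 genes. Gzme lay below the lower quartile of all probe sets on both arrays of tumor B, as did Stbd1 on extinction B. The sizes of their differences are therefore uncertain. Tyr, Aldoc, Dusp4, Ninl and Ppargc1a were also in this group, with their highest values on the melanoma-rich arrays, as was Cdyl2 (-1.21 and -1.18), which was highest on extinction A.

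On the scale relative to endothelial genes only 4 genes were lower in expansion in both pairs. On the deposited scale the 24 such genes were led by Cxcr4, Tmem255a (7.83, 9.97, 7.16 and 9.34), Ms4a6d (5.84, 7.81, 5.47 and 7.30), Glipr1 (5.47, 7.29, 6.91 and 9.21) and Kcne3. They also held Esco2, which acetylates cohesin (3.74, 5.76, 3.93 and 5.53), Actc1 (5.93, 7.31, 6.55 and 8.37), Esm1, the cytokine Lif (7.37, 9.23, 7.04 and 8.37) and Mest (9.03, 10.96, 8.22 and 9.54). The extinction arrays were above the expansion arrays for each. Esco2 lay below the lower quartile of all probe sets on both expansion arrays, so the sizes of its differences are uncertain. Its other probe set was -0.52 apart on the chosen arrays. Of the tip cell genes lower on expansion B, Cxcr4, Kcne3, Esm1 and Igfbp3 were in this group on the deposited scale. They were higher on extinction B than on expansion A by 2.48, 2.17, 1.38 and 1.05, where the pan-endothelial median was 1.04. Esm1 and Igfbp3 were thus not among the 4 genes left on the scale relative to endothelial genes.

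The 13 genes higher in expansion in both pairs included Apoe, the lipid carrier, at 10.37, 8.75, 11.70 and 10.25, the prostaglandin receptor Ptger4, at 10.18, 8.38, 6.52 and 5.34, and Col4a5, at 7.96, 6.64, 7.47 and 6.03. Ptger4 was brighter on both endothelial-rich arrays and Apoe brightest on expansion A, and within each pair the expansion array was the higher. Osbpl6, Adhfe1, Abat, Mbp, Il17rd, Pla2g2e and Mamdc2 were the others among the 10 largest. Osbpl6, Adhfe1 and Pla2g2e were brighter on both melanoma-rich arrays. Further probe sets of Osbpl6 (-0.10 to 0.27), Adhfe1 (-0.003 and 0.12), Abat (-0.34), Il17rd (-0.13), Col4a5 (0.24) and Ptger4 (0.79) did not differ 2-fold. These further probe sets were dimmer than the probe set median on the chosen arrays. None of the 13 was on a gene list.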

How the data were processed

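Per the labels' protocols, RNA from each of 4 samples was extracted with TRIzol, amplified in 2 rounds, which favors 3 prime ends, and put on Affymetrix Mouse430_2 arrays. The deposited values are log2 values. The submitters' processing notes name RMA and affy, without versions in the sources used here. RMA normalizes all arrays jointly. Of 45101 probe sets 64 controls were set aside. Names came from the platform annotation, checked by gene ID against RefSeq (GRCm38.p6, 0 changed): 34945 probe sets had 1 symbol, 932 several and 9160 none listed. The probe set with the highest mean of the 4 arrays stood for each of 18193 genes, and 9010 genes had more than 1.

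With 1 array a side there was no test: differences were counted at 2-fold (Python 3.11.15, pandas 2.3.3), a step tested on simulated data. The simulated shifts lay well beyond the threshold, so that check covers the counting step and not the reliability of these counts. Members, lists (33, with 484 of 516 genes measured) and rules were chosen with earlier results of these data known. Named were fixed markers, the 10 highest endothelial and 10 highest stromal genes, the 15 largest differences per direction with the higher array no lower than the probe set median (5.78), up to 10 per class for both pairs and up to 4 per list. Symbols that are clone or model names were left out. Further list members were named after their values were seen. Promoters, for 14452 genes, were chosen likewise. Precision is limited by the number of arrays, as arrays have no depth.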

Additional observations from a re-analysis of the deposited data

How the results depend on the processing

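No paired analysis was possible because the comparison has 1 array a side, with different replicate numbers, and leaving out an array leaves nothing to compare. The 554 higher and 384 lower genes became 309 and 1022 relative to the endothelial genes and 1360 and 1327 at 1.5-fold, and the mean of all probe sets gave 246 lower. The genes 2-fold apart by tumor on the other pair too (145) became 551 at 1.5-fold, and those by clone class (37) became 251 at 1.5-fold and 19 with the mean of all probe sets. With each pair relative to its endothelial median, a setting chosen after seeing the data, as was subtraction of the melanoma signal, these 2 counts were 658 and 100. That shift puts 11091 of 18193 genes at least 2-fold lower on extinction B relative to its endothelial genes. Of the other 14 recounts none moved by over 1.5 times.

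Of 164 list medians under the alternatives 152 did not turn sign and moved by less than 0.50, the SD of all differences. Part of this was fixed in advance. The pan-endothelial median relative to itself is 0 by construction. Setting lists relative to it shifts each by 0.32, which can turn a sign but not pass 0.50. Leaving out dimmer genes changes nothing in lists whose members are all bright. The keratinocyte median moved from 0.15 to 0.99 when dimmer genes were left out. The melanoma median became 0 with its own signal subtracted, but its members then ran from -4.659 to 4.455. Of these genes 4 were at least 2-fold higher and 3 lower, so the subtraction did not clear the pigment genes evenly. Signs turned in 9 lists. Relative to endothelial genes the fibroblast (-0.29), skeletal muscle (-0.23), keratinocyte (-0.18), red cell (-0.15), junction and caveola (-0.24), chemokine (-0.31), matrix protease (-0.13) and coagulation (-0.065) medians turned negative. The leukocyte median turned positive when dimmer genes were left out (0.21) and with the melanoma signal subtracted (0.021). Probe sets limit single genes: for 524 higher genes no dimmer than the median, 159 of 318 further probe sets at that level were 2-fold higher too and 291 had the same sign, and for 360 lower genes 76 of 185 and 159. Below the median level 54 of 6315 genes were 2-fold apart.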
